A study of Mus musculus with 18 samples.

Results

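The clustered protocadherins are cell-surface adhesion proteins of the cadherin superfamily, encoded in 3 neighbouring gene arrays called alpha (Pcdha), beta (Pcdhb) and gamma (Pcdhg). Members were taken by symbol from the RefSeq table of mouse assembly GRCm38.p6: 14 alpha, 22 beta and 22 gamma genes, 58 of the 49993 genes in that table. One of the 58, Pcdhgb8, is a transcribed pseudogene. All lie on chromosome 18, the alpha cluster at 36930285-37188897 (258.6 kb), the beta cluster at 37264998-37521419 (256.4 kb) and the gamma cluster at 37661775-37841873 (180.1 kb). The rule for membership uses the gene symbol.

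Each alpha and gamma gene has its own promoter and its own large first exon, the variable exon, which is spliced to constant exons that the whole cluster shares, while each beta gene is a single coding exon. In neurons, which use these proteins to tell self from non-self, each cell expresses only some of the variable exons, and methylation of the promoters and variable exons goes with silence. The C-type genes at the end of the alpha and gamma clusters are controlled differently and are used more uniformly.

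The study measured DNA methylation in myocardial tissue of male C57BL/6JR mice aged 12 weeks as an infarct (myocardial infarction, MI) developed. A ligature on the left anterior descending coronary artery produced the infarct, and in sham mice the suture was passed but not tied. Groups of 3 mice were taken early (10 min or 1 h after ligation), at 6 h, and late (24 h or 72 h), which with 3 sham mice made 18 libraries. The assay was MeDIP-seq, in which DNA fragments bound by an antibody to 5-methylcytosine are sequenced, so that a peak marks a stretch rich in methylated fragments and no peak does not mean unmethylated DNA. Although the labels name the cell type as cardiomyocytes, they describe tissue, and a peak list holds no expression against which to check the cell type.

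The deposited lists held 34255 to 60653 peaks per library, and the lowest score in each was 50. Depth in reads was unknown, so no counting interval is given. At other protein-coding gene starts, 4.61% to 8.73% of windows held a peak in a given library, and this share moved with the length of the list. Across 9 cardiomyocyte marker genes, 2 to 6 had a peak somewhere in the gene in a given library (Nppa and Tnni3 in none), with 3 to 4 in sham, 2 to 3 at 10 min and at 6 h, 3 in each at 1 h, 3 to 6 at 24 h and 4 to 6 at 72 h. For 6 leukocyte markers (Cd68, Lyz2 and S100a8 in none) the number was 0 to 1 in sham and at 10 min, 1 to 3 at 1 h, 0 at 6 h and 1 to 2 at 24 h and 72 h. It was 2 to 4 for 5 fibroblast and 3 to 4 for 4 endothelial markers, and the part of other cell types in the results below was not tested.

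The first question was where in the clusters methylation was found. On average 58.7% ± 8.65 (SD, n = 18 libraries) of the covered bases lay in the first 2500 bases of a member, where the variable exons begin, and the remainder lay elsewhere in the clusters. In the alpha cluster the share was 45.0% ± 14.3, and 9.65% in the lowest library. Around the gene starts, peaks stood inside the genes and seldom at the promoters. Averaged over genes and libraries, bases within 250 of a gene start were under a peak 0.84% of the time in alpha, 0.609% in beta and 1.11% in gamma genes, against 1.20% at 13411 other protein-coding genes of at least 5 kb. Further into the gene the clusters parted from other genes. Coverage was highest 1725 bases into alpha genes at 30.4%, 1325 bases into beta genes at 17.7%, and 1225 bases into gamma genes at 28.6%. Over the same stretch of other genes it did not pass 2.83% in any bin. Between 3500 and 5000 bases from the start it was 0.366%, 0.236% and 1.37%, below the 2.77% of other genes. The beta genes are 2340 to 5271 bases long, so for most of them this stretch runs past the end of the gene. These profiles are descriptions of one genome averaged over libraries and carry no test. They give bases under peaks and not levels of methylation. The density of sites that can be methylated was not computed, and exons and introns of the other genes were not parted.

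**Figure D1:**
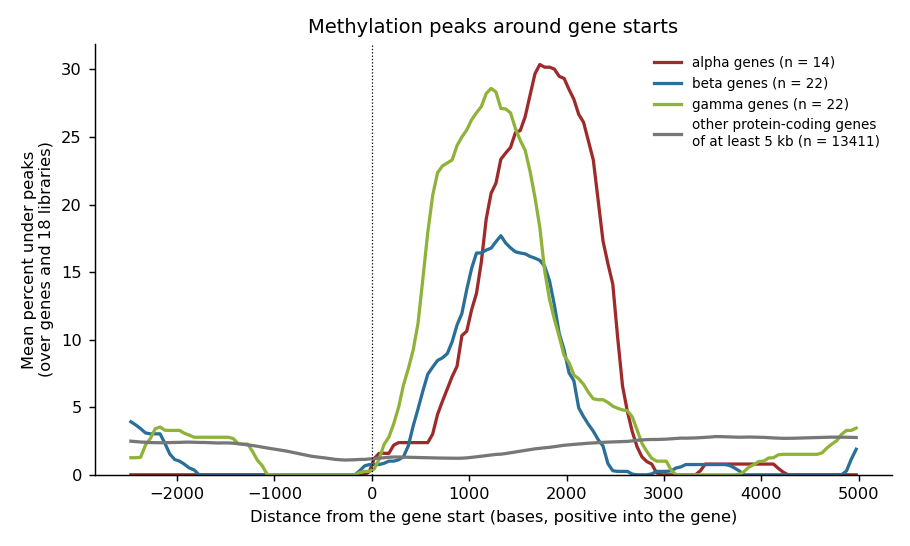
Mean percent of bases under a peak (y axis) in 50-base bins from 2500 bases before to 5000 bases after the gene start (x axis), averaged over genes and the 18 libraries for alpha, beta and gamma genes and for 13411 other protein-coding genes of at least 5 kb. The 3 protocadherin lines are near 0 at the start, reach 30.4%, 17.7% and 28.6% inside the gene, and fall again, while other genes stay below 3%.

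Peaks at most members stood at a like distance from the start. Taking 1 median midpoint for each gene, the middle of 13 alpha genes was 1778 bases in (quartiles 1678 and 1907), of 17 beta genes 1434 (1307 and 1616) and of 13 gamma genes 1119 (1072 and 1400). Pcdhb1 stood apart at 427 bases. Over single peaks, where genes with a peak in many libraries weigh more, the midpoints of 81 peaks in alpha windows had a median of 1726 bases from the start, with quartiles of 1599 and 1882. In beta windows 86 peaks had a median of 1398 bases (quartiles 1049 and 1602), and in gamma windows 119 peaks had a median of 1147 bases (quartiles 1008 and 1432). At the promoter itself, from 250 bases before to 50 bases after the start, 5 of the 58 members (8.62%) had a peak in any library. They were Pcdha1 and Pcdhb1, the first genes of their clusters, in 3 libraries each, and Pcdha6, Pcdhgb1 and Pcdhga12 in 1 each. The share at other genes was 6.58%. No protocadherin had a promoter peak in at least 9 libraries, and such peaks were rare at other genes too (259 of 17491). The members are too few to tell these apart.

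Each gene was then scored by the percent of its first 2500 bases that lay under peaks, called its window here. A peak reached the window in at least 1 library at 44 of the 58 members (75.9%), in at least 9 of the 18 libraries at 14 members (24.1%) and in all 18 at 2 members (3.45%). For the other 17491 gene starts these shares were 20.6%, 5.37% and 0.892%. The mean window was 13.2% covered in the clusters and 2.23% covered elsewhere. Of the remaining members, 14 had no peak in any library, 13 had a peak in a single library and 17 in 2 to 8 libraries. Gene starts are closely spaced here, with a median of 7.44 kb from one alpha start to the next, 7.84 kb in beta and 5.33 kb in gamma. Because the genes are related in sequence and the handling of reads that match several places was not given in the sources used here, a peak at one member could hold reads of another.

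**Figure D2:**
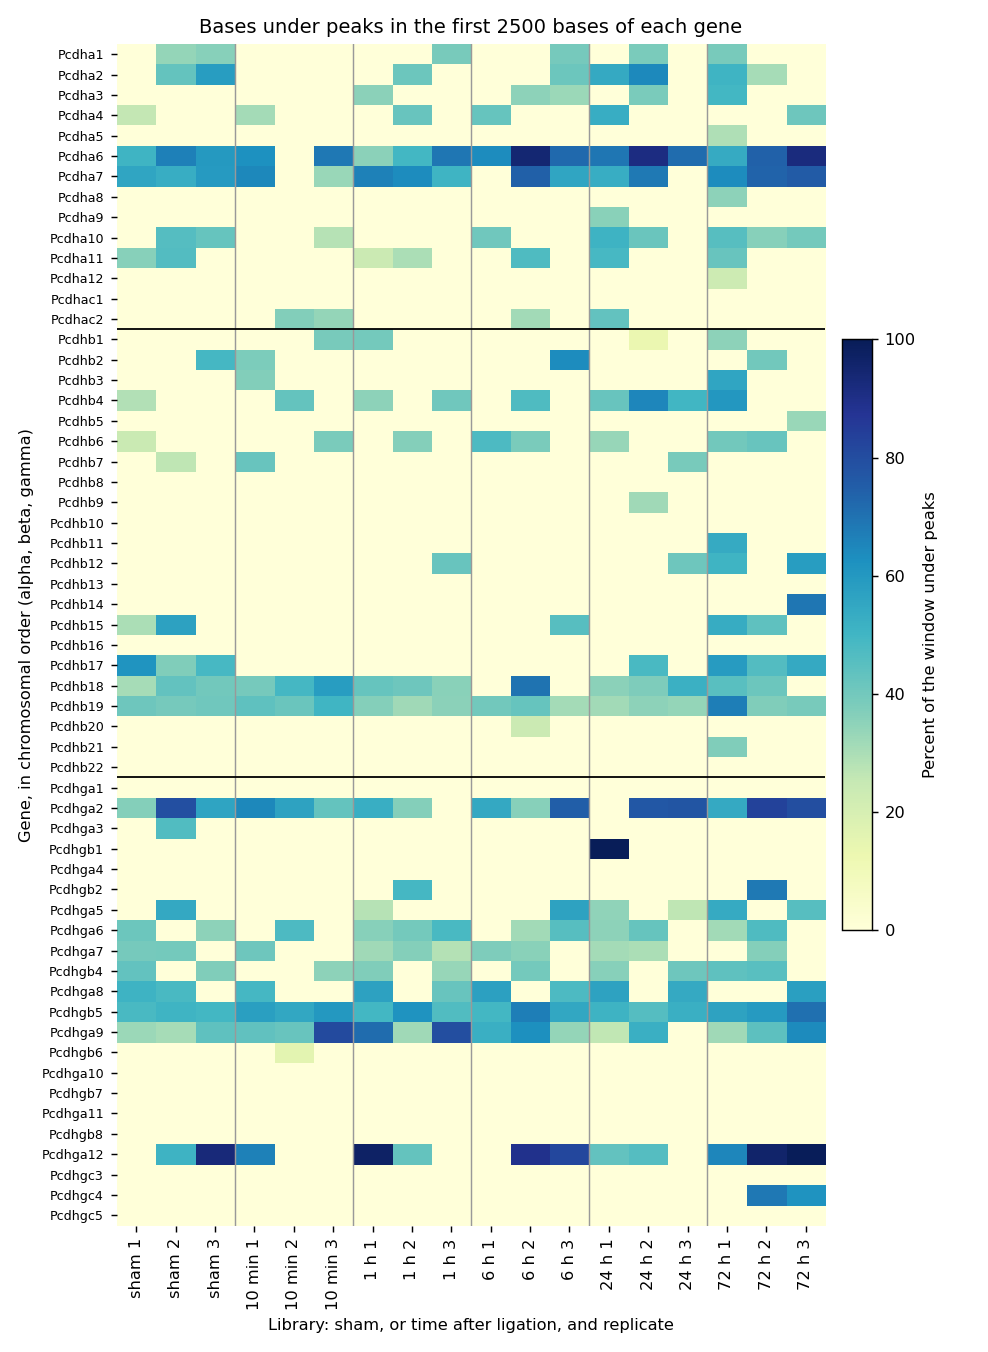
Percent of the first 2500 bases under peaks (colour, 0 to 100) for each of the 58 genes in chromosomal order (rows; black lines part alpha, beta and gamma) in each library (columns, sham then time after ligation with replicate number). Only Pcdhb19 and Pcdhgb5 are covered in all 18 libraries, and 14 rows are empty.

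In the alpha cluster all 12 ordinary genes had a peak in at least 1 library, and 3 of them had one in at least 9. Pcdha6 was the most frequent, with a peak in 17 libraries inside a merged region at chr18:36967631-36970380, which starts at the first bases of the gene. Its window was 50.5%, 66.6% and 59.4% covered in the sham libraries and 53.9%, 74.2% and 91.9% covered at 72 h. Only 10 min replicate 2 lacked the Pcdha6 peak, and the sham and 72 h ranges overlapped.

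Pcdha7, the next gene along, had a peak in 15 libraries at chr18:36974426-36976570. Sham windows of Pcdha7 were 55.6%, 52.8% and 59.3% covered, and those at 72 h were 63.5%, 73.8% and 75.4% covered. All 3 values at 72 h lay above all 3 of sham, which no other time did. The 3 libraries without the peak were 10 min replicate 2, 6 h replicate 1 and 24 h replicate 3. Pcdha10 had a peak in 9 libraries: 2 of 3 sham, 1 at 10 min, 0 after 1 h, 1 after 6 h, 2 after 24 h and all 3 at 72 h. Pcdha2 had one in 8 libraries, 2 of them sham, and none at 10 min.

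Of the 5 C-type genes, 3 had no peak in any library. Pcdhac1 had no peak in any library, and its start at 37090136 lies inside the longest stretch of the 3 clusters without any peak, 74.0 kb at chr18:37046838-37120885. Pcdhac2 had a peak in 4 libraries, at 37.0% and 33.6% of the window in 10 min replicates 2 and 3, 31.5% in 6 h replicate 2 and 43.3% in 24 h replicate 1. No sham and no 72 h library had it. In the gamma cluster Pcdhgc3 and Pcdhgc5 had none either, and Pcdhgc4 had one only in 72 h replicates 2 and 3, covering 68.7% and 61.5% of the window. Since 72 h replicate 1 lacked the peak, Pcdhgc4 did not meet the rule for a gained peak described further on.

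Of the 22 beta genes, 17 had a peak in some library but only 3 had one in at least 9. Pcdhb19 had a peak in all 18, at chr18:37497278-37499078, inside the gene (37496998-37501711). In sham its window was 40.9%, 39.3% and 40.4% covered, and over all libraries coverage ran from 31.0% to 66.8%. Replicate 1 at 72 h gave the highest value, and the other 2 libraries of that time, at 37.2% and 38.7%, lay just below sham. Pcdhb18, beside it, had a peak in 15 libraries, missing from 6 h replicates 1 and 3 and 72 h replicate 3. Pcdhb4 had one in 9 libraries and was covered in 1 of 3 sham libraries (28.6%) and in 3 of 3 at 24 h (42.0%, 65.1% and 49.9%). Pcdhb6 had a peak in 8 libraries, spread over all 6 groups. Pcdhb8, Pcdhb10, Pcdhb13, Pcdhb16 and Pcdhb22 had none in the window. In 5 beta windows no library had a peak and in 6 a single library did, and the order of such windows along the cluster was not tested. Among them were stretches of neighbours: the 4 genes from Pcdhb8 to Pcdhb11 and the 3 genes from Pcdhb20 to Pcdhb22. Outside the windows these stretches did hold peaks, among them a region at the far end of Pcdhb22, chr18:37521240-37522142, found in 3 libraries, and regions between Pcdhb8 and Pcdhb9 described with the merged regions.

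Gamma genes stood partly in runs, again without a test of their order. Of the 22, 8 had a peak in at least 9 libraries and 8 had none. A run of 6 neighbours, Pcdhga6, Pcdhga7, Pcdhgb4, Pcdhga8, Pcdhgb5 and Pcdhga9, all belonged to the first kind. The windows of the 5 genes that follow them, Pcdhgb6 to Pcdhgb8, were reached in at most 1 library each, and 20.4 kb of that stretch held no peak at all. Pcdhgb5 had a peak in all 18 libraries, at chr18:37731038-37733095. Its window was 48.1%, 50.4% and 49.3% covered in sham and 56.6%, 59.4% and 70.4% covered at 72 h, so these groups did not overlap, nor did sham and the 3 libraries at 10 min (57.6%, 55.0% and 60.0%).

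Pcdhga9 had a peak in 17 libraries, with sham windows at 32.6%, 30.7% and 43.9% and a range where present from 26.1% to 80.6%. It was missing only from 24 h replicate 3. Pcdhga2 had a peak in 16 libraries and sham windows at 36.7%, 79.0% and 56.2%. Pcdhga12, the last gene before the C-type genes, had a peak in 12 libraries that, where present, covered 42.8% to 99.5% of the window. Its values spread most widely of these 4 gamma genes, at 0, 51.1% and 93.0% in sham and at 64.9%, 96.0% and 99.5% at 72 h, ranges that overlap. By subfamily, 6 of 12 Pcdhga genes and 2 of 7 Pcdhgb genes had a peak in at least 9 libraries.

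**Figure D3:**
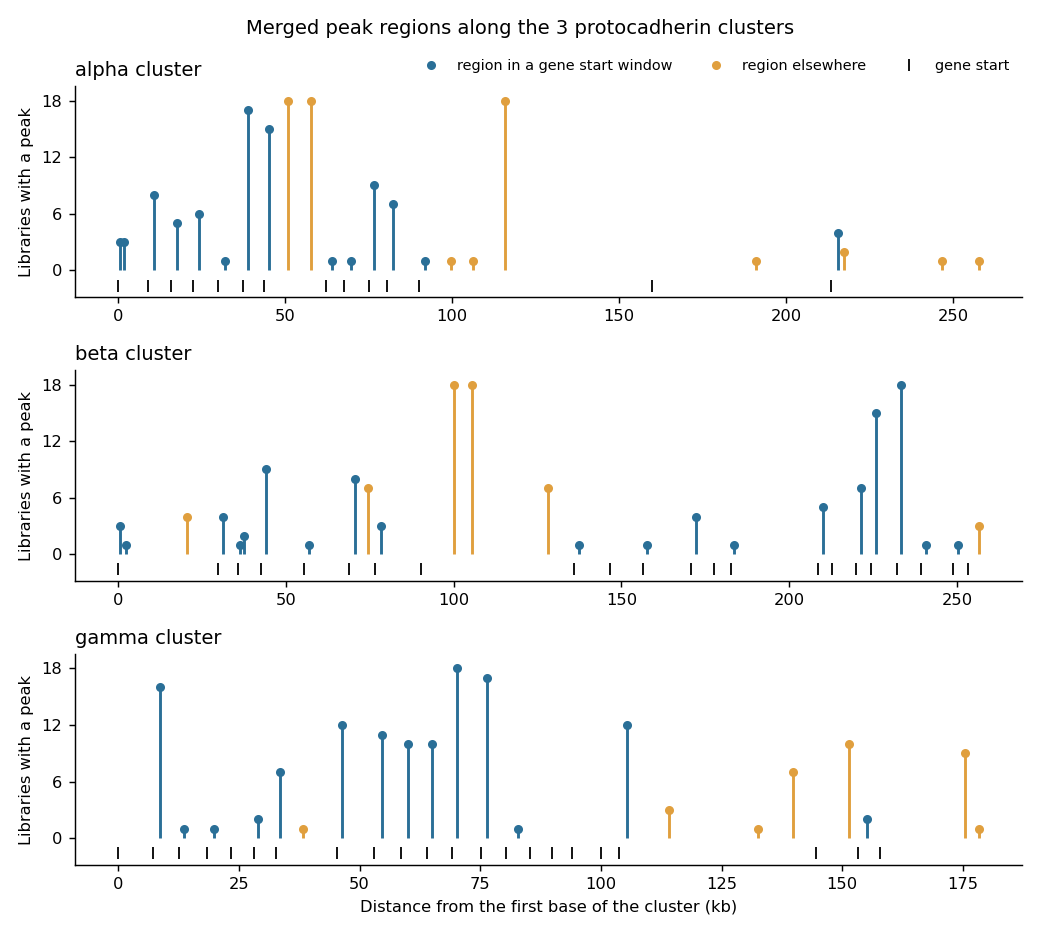
Merged peak regions (stems) along the alpha, beta and gamma clusters, with the distance from the first base of the cluster in kb on the x axis and the number of libraries with a peak on the y axis, and black ticks for gene starts. Most regions follow a gene start, regions found in all 18 libraries also stand between starts in alpha and beta, and the alpha cluster has no region for 74.0 kb around the start of Pcdhac1.

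Merging the peaks of all libraries gave 69 regions in the clusters, 23 in alpha, 25 in beta and 21 in gamma, of which 47 touched a window. A peak was present in all 18 libraries in 7 regions (10.1%), in at least 9 in 21 (30.4%) and in a single library in 23 (33.3%). Genome-wide, over 152196 regions, these shares were 5.09%, 25.2% and 29.2%. Of the 22 regions outside a window, 5 were found in all 18 libraries, and of the 47 in a window, 2 were. Replicate 1 at 72 h alone held 6 of the 23 single-library regions.

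The strongest region by the authors' score was chr18:37363515-37366599, between the starts of Pcdhb8 and Pcdhb9, with a mean score of 206.1 ± 42.1 (SD, n = 18 libraries). Next by mean score was the Pcdha6 region, at 136.2 ± 46.9 (n = 17). A neighbour of the first, chr18:37369295-37371558, was found in all 18 libraries and scored 131.1 ± 33.1. Both regions between Pcdhb8 and Pcdhb9 lie outside the first 2500 bases of any member. Among the others found in all 18 libraries, the Pcdhgb5 region scored 121.9 ± 24.4. In the alpha cluster, regions at chr18:36979595-36982636 (109.4 ± 31.9) and chr18:36986097-36989801 (96.5 ± 25.7) lie in the annotated pseudogene Gm36858, between Pcdha7 and Pcdha8. The remaining alpha region found in all libraries, chr18:37045140-37046837 (103.3 ± 27.4), lies between the starts of Pcdha12 and Pcdhac1, at the edge of the 74.0 kb gap. The 7 regions found in all libraries had a median score of 109.4, the 39 found in 2 to 17 libraries 71.8, and the 23 found in 1 library 62.2.

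The next question was whether MI changed methylation at these genes. For each of 3646 gene starts with a peak in any library, the percent of the window under peaks was compared between the 15 MI and the 3 sham libraries by a two-sided exact permutation test, with Benjamini-Hochberg adjustment over all 3646. Of the 44 members tested, 0 passed at an adjusted p of 0.05, and neither did any other gene start (0%). At an unadjusted p of 0.05, 1 member passed, and 2.85% of all gene starts tested did. Coverage was lower in MI at 17 members and higher at 27, so 38.6% were lower, against 41.8% of all gene starts tested. The median difference was 1.76 percentage points over the members and 0.65 over all. The smallest p these 18 libraries allow is 0.00123. At least 90 gene starts at that p would have been needed for an adjusted p under 0.05, and 2 had it, so the 44 members could not have passed by themselves. In tissue, a change in the mix of cells and a change of methylation within one kind of cell cannot be told apart.

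Pcdhb17 was the member that passed before adjustment. Its window was 61.2%, 37.5% and 48.8% covered in sham, and 0 in all 9 libraries at 10 min, 1 h and 6 h. At 24 h it was 48.2% in replicate 2 and 0 in the other 2, and at 72 h it was 58.7%, 46.2% and 54.2%. Thus the peak was present in every sham and every 72 h library, absent from every library of the first 3 times, and present in 1 of 3 at 24 h. The MI mean was 35.3 points below the sham mean (exact permutation p = 0.0282, adjusted p = 1.00). Without sham replicate 1 the difference was -29.3 points with an exact permutation p of 0.0956. The region, chr18:37485515-37487127, lies inside the gene body (37485021-37488290), and its 7 peaks scored 53.6 to 92.4, with 2 of them at or above the median score of their own list. With every list cut to its 34255 highest-scoring peaks, the peak remained in 2 of 3 sham and 2 of 3 libraries at 72 h.

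**Figure D4:**
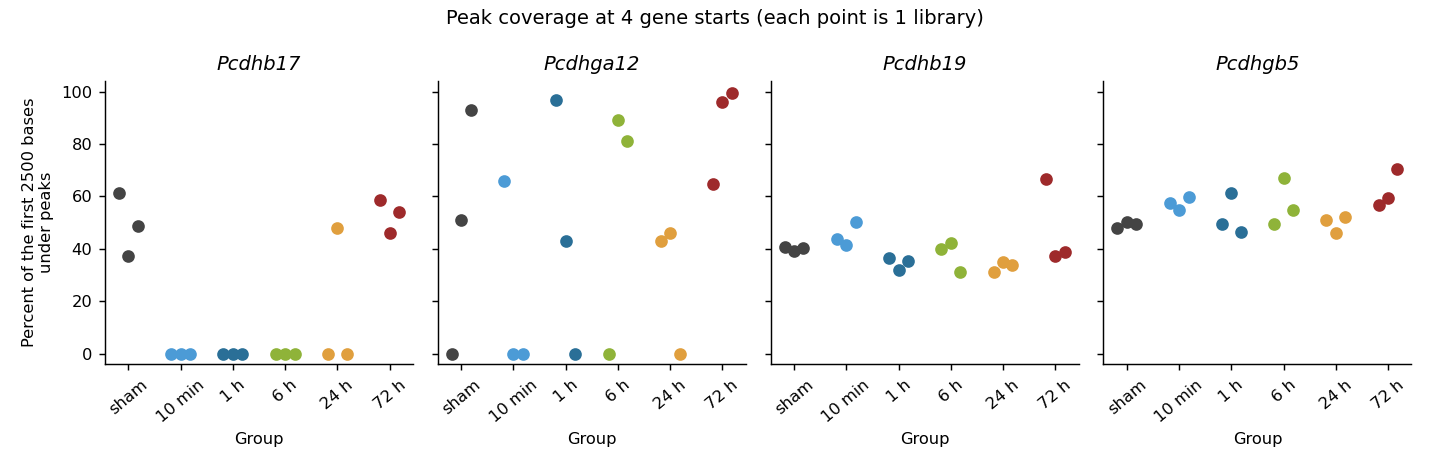
Percent of the first 2500 bases under peaks (y axis) in each library (points) by group (x axis) for Pcdhb17, Pcdhga12, Pcdhb19 and Pcdhgb5. Pcdhb17 is at 0 in all 9 libraries from 10 min to 6 h and between 37.5% and 61.2% in sham, Pcdhga12 ranges from 0 to 99.5%, and Pcdhb19 and Pcdhgb5 are covered in all 18 libraries.

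The other large differences between MI and sham had wide spreads. Pcdhb15 was at 29.8%, 57.0% and 0 in sham and was covered in 3 of 15 MI libraries, a mean difference of -19.4 points (exact permutation p = 0.124). The difference at Pcdhb15 was -5.35 points without sham replicate 2. Pcdhga3 had a peak in sham replicate 2 alone, which gave a difference of -15.6 points (exact permutation p = 0.167). In the other direction, Pcdhb4 was 16.0 points higher in MI (exact permutation p = 0.29), Pcdhb12 12.8 points (exact permutation p = 0.554) and Pcdha3 12.7 points (exact permutation p = 0.522). None of these 5 passed before adjustment, and Pcdhb12 and Pcdha3 had no peak in any sham library.

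Each time was also compared with sham alone, where a window was called lost when all 3 sham libraries and no MI library of that time had a peak, and gained in the opposite case. The 5 comparisons share the 3 sham libraries. Pcdhb17 was lost at 10 min (0.741% of all gene starts tested were lost), at 1 h (0.741%) and at 6 h (0.768%), each time by 49.2 points from a sham mean of 49.2% ± 11.9 (SD, n = 3). The exact permutation p was 0.1 each time, the smallest that 3 against 3 libraries allow. Any window called lost or gained has this p, so it adds nothing to the calls. No other member was lost at those times, and none was lost at 24 h (0.686%) or 72 h (0.411%). No member was gained, while of the gene starts tested 0.165% (10 min), 0.165% (1 h), 0.137% (6 h), 0.494% (24 h) and 1.29% (72 h) were. So 1 member of 44 was called at each of the first 3 times and 0 at 24 h and 72 h.

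Groups were also compared by coverage of the window alone, which takes in windows where a peak stays and windows where it comes or goes. The Pcdhb17 entries here are the lost calls above. All 3 libraries lay above all 3 of sham at 2 members at 10 min, Pcdhb19 and Pcdhgb5 (0.96% of gene starts tested did so), at 0 members at 1 h (0.631%), at 0 at 6 h (1.21%), at 2 at 24 h, Pcdha6 and Pcdhb4 (1.59%), and at 2 at 72 h, Pcdha7 and Pcdhgb5 (2.61%). They lay below sham at Pcdhb17 alone at 10 min (1.78%), at Pcdhb17 and Pcdhb19 at 1 h (2.25%), at Pcdhb17 at 6 h (1.76%), at Pcdhb19 at 24 h (1.84%), and at no member at 72 h (1.51%). Pcdhb19 thus stood on both sides: its window was 43.9%, 41.6% and 50.2% covered at 10 min, 36.6%, 32.0% and 35.2% at 1 h, and 31.4%, 35.0% and 33.8% at 24 h, against 39.3% to 40.9% in sham. Its sham values were close together (40.2% ± 0.80, SD, n = 3). Pcdha6 at 24 h had 69.1%, 91.2% and 71.4%, and its highest sham value was 66.6%.

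Over all 69 regions in the clusters, the same rule called 2 lost at 10 min (0.624% of all regions were), 1 at 1 h (0.553%) and 2 at 6 h (0.706%), while at 24 h it called 0 (0.524%) and at 72 h 0 (0.397%). No region was gained, against 0.216% (10 min), 0.225% (1 h), 0.201% (6 h), 0.393% (24 h) and 0.719% (72 h) of all regions. Beside the Pcdhb17 region, the one called was chr18:37836638-37837836, which follows the start of Pcdhgc5 near the shared end of the gamma genes. It had a peak in 3 of 3 sham libraries, then 0 at 10 min, 2 after 1 h, 0 after 6 h, 1 after 24 h and 3 after 72 h, with a mean score of 71.7 ± 20.3 (SD, n = 9). Both regions called were present in all 72 h libraries. Their presence in all sham libraries is set by the rule for a loss. A region between the starts of Pcdhgc3 and Pcdhgc4, chr18:37812384-37813983, named after its values were seen, had a peak in 10 libraries, 2 of 3 sham and none at 72 h, and was not called.

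Finally the clusters were measured as a whole. Peaks covered 4.62% ± 0.32 of their bases in sham (SD, n = 3), 4.39% to 4.98%, and 5.82% ± 0.59 at 72 h, 5.20% to 6.39%. All 3 libraries at 72 h lay above all 3 of sham, and all 3 at 1 h, at 4.14% ± 0.27, lay below them, by a narrow margin (highest 4.38%). These cluster values carry no test. With all peaks, protein-coding genes as a whole also lay below sham at 1 h, at 1.94% to 2.13% against 2.15% to 2.86%. At 72 h coding genes were at 2.40% to 2.87%, which overlapped sham. The other times overlapped sham, and the mean of the 15 MI libraries was 4.60%. Over all protein-coding genes the value was lower in every one of the 18 libraries, and the clusters were 1.57 to 2.78 times as covered. This ratio was 1.57 to 2.23 in sham and 2.05 to 2.51 at 72 h, which overlapped.

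The difference at 72 h lay in the gene start windows. There, over 20.8% of the length, coverage was 11.7%, 15.4% and 12.9% in the sham libraries and 22.8%, 17.5% and 16.9% at 72 h. These groups did not overlap. At the other times, 10 min had 11.7%, 6.69% and 9.77%, 1 h 13.4%, 10.9% and 10.2%, 6 h 8.37%, 14.9% and 13.4%, and 24 h 16.6%, 14.9% and 9.28%. These 4 times overlapped sham. In the rest of the clusters coverage was 1.61% to 3.12% over the 18 libraries, with 2.33% ± 0.65 in sham and 2.33% ± 0.42 at 72 h (SD, n = 3). Without 72 h replicate 1, the most covered library, the mean at 72 h was 17.2% in the windows, still above each sham value.

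List length moved with this result, at 48608 to 60653 peaks at 72 h against 44328 to 60130 in sham. With every list cut to 34255 peaks, windows were 9.16%, 11% and 9.99% covered in sham and 15%, 12.8% and 14.4% at 72 h, again without overlap. At the other protein-coding gene starts, lists of that length covered 1.40% to 1.76% in sham and 1.57% to 1.69% at 72 h, which overlapped. Whether the members and other gene starts differed in this change was not tested. Peaks in the clusters numbered 25 to 28 in sham and 23 to 38 at 72 h, which overlapped.

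**Figure D5:**
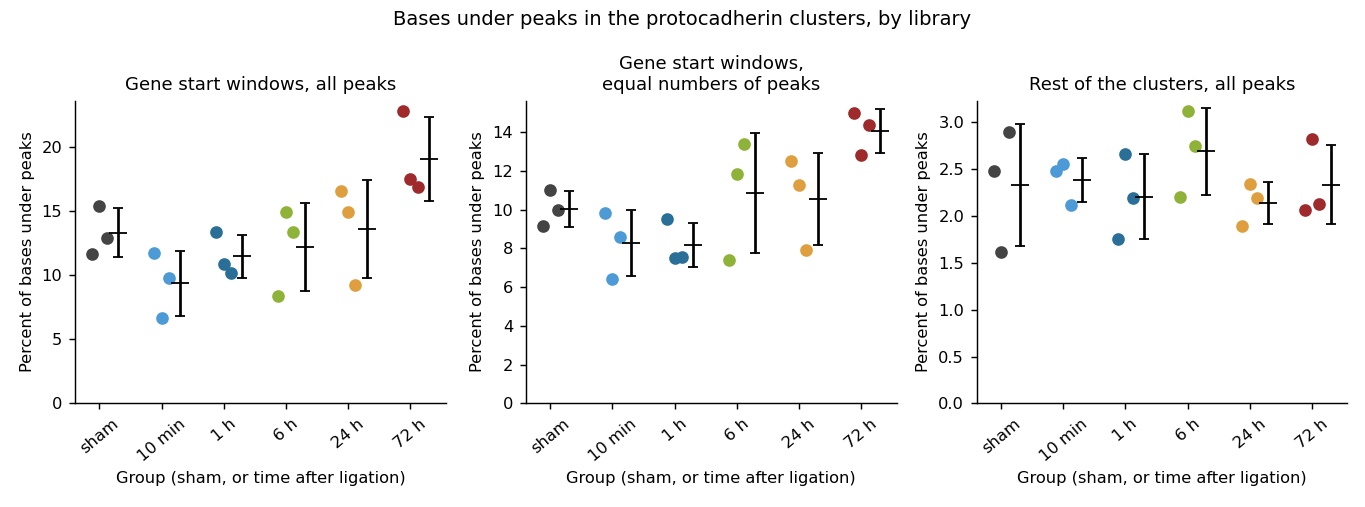
Percent of bases under peaks (y axis) by group (x axis), with 1 point per library and bars for the mean ± SD (n = 3), in the gene start windows with all peaks (left) and with each list cut to 34255 peaks (middle), and in the rest of the clusters (right). The 3 libraries at 72 h are above all 3 sham libraries in the windows in both panels and overlap sham in the rest.

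Taken one by one, no cluster was separated from sham at 72 h. Coverage was 4.67% to 6.14% in alpha (sham 4.30% to 4.95%), 3.91% to 7.08% in beta (3.35% to 3.96%) and 5.76% to 8.76% in gamma (5.58% to 6.50%). In the windows alone, beta was separated at 72 h, at 11.4% to 25.4% against 8.14% to 9.81%, while alpha (15.3% to 30.7% against 12.0% to 20.6%) and gamma (15.3% to 24.9% against 13.3% to 18.2%) overlapped. Below sham lay the beta windows at 1 h (4.99% to 6.98%), the alpha windows at 10 min (2.65% to 11.6%) and the whole alpha cluster at 10 min (3.71% to 3.95%). The windows of other protein-coding genes also lay below sham at 1 h (1.73% to 1.91% against 1.98% to 2.84%). At 10 min those windows overlapped sham (1.77% to 2.39%). Whether the clusters differed from other genes in this was not tested.

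The number of members with a peak was 15 to 19 in sham, 9 to 14 at 10 min and 16 to 28 at 72 h. Replicate 1 at 72 h gave the 28, and 5 members had a peak in that library alone. The lowest, 9, was 10 min replicate 2, whose list of 37084 peaks was the second shortest. The shortest list, 34255 peaks in 6 h replicate 3, gave 15. At 10 min no library reached the lowest sham count, and the share of other gene starts with a peak was 4.89% to 7.26% there against 5.92% to 8.73% in sham. With every list cut to 34255 peaks, 12 to 13 members had a peak in sham, 8 to 11 at 10 min and 10 to 11 at 1 h. Those 2 times lay below sham, while 6 h (9 to 15), 24 h (9 to 16) and 72 h (13 to 17) overlapped it. The part of list length in these counts was not tested.

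Of 12 non-clustered protocadherins, which stand alone in the genome, 10 had a peak somewhere in the gene and 6 had one in at least 9 libraries, and 0 of the 9 whose start could be placed had one in the first 2500 bases, where 20.6% of other gene starts did. Pcdh10, Pcdh15, Pcdh9 and Pcdh1 had a peak in the gene in all 18 libraries. Among 14 genes for regulators of the clusters, such as Ctcf for the insulator protein and Dnmt3b for a DNA methyltransferase, 11 had a peak in the gene in at least 9 libraries. Of the 11 regulators that could be placed, 2 had a peak at the start, near that background share: Stag1, a cohesin subunit, in 13 libraries and Dnmt1, the maintenance methyltransferase, in 2. None of these starts was gained or lost at any time. For peaks anywhere in a gene, the share over all genes was not computed, so the whole-gene counts have no background. Of the single genes that lie among or beside the arrays, Slc25a2 had a peak in 13 libraries, Taf7 in 1, Zmat2 in 16, Diaph1 in 18 and Hdac3 in 6. Between the beta and gamma clusters, 140.4 kb held 10 regions, 1 of them in all 18 libraries, and between alpha and beta 76.1 kb held 2.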

How the data were processed

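MeDIP-seq peaks of 18 libraries were used. The submitters' processing notes name Bowtie2, MACS2 and mm10; versions, options and use of an input library are not given in the sources used here. The authors deposited 1 peak list per library, with a score per peak whose scale is not stated; the lowest deposited score was 50 in each. Gene positions came from RefSeq (GRCm38.p6, the same build). Strand came from the RefSeq promoter table for 17491 other protein-coding genes; members were read as forward-strand, since alpha and gamma genes share their right-hand ends.

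Computed here with Python 3.11.15, NumPy 2.4.6, pandas 2.3.3 and SciPy 1.17.1: bases under peaks in the first 2500 bases of each gene; regions merged at 1 base of overlap; exact permutation tests. The test was tested on simulated data, where 2.35% of unchanged windows had p under 0.05. The libraries are separate mice by label, and p-values cover the spread between them. Members and lists were chosen with earlier results of these data known. Genes named with values are, per cluster, the 4 with a peak in most libraries, the C-type genes, all without a peak where a cluster has 5 or fewer, those gained or lost, and the 3 largest differences each way. Alternatives were score, overlap and window cutoffs, equal list lengths, peak midpoints, a replicate block and leaving out each library. No sequence is shown.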

Additional observations from a re-analysis of the deposited data

Results flagged for a closer look

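For the measures here, the 3 libraries of one time were all higher than the mean of sham, and the 3 libraries of another were all lower. These differences between times were not tested, and all share the 3 sham libraries. The share of all gene starts meeting this rule was not computed. For coverage of all 3 clusters, 72 h and 10 min lay on either side of sham with a gap of 1.98 points, and the gap to 1 h was 1.68 points. In the beta cluster the gaps were 2.11 points (10 min) and 1.97 points (1 h), and in the alpha cluster 1.43 points (10 min). In the gene start windows 72 h and 10 min differed by 9.68 points. Pcdha10 differed by 31.2 points between 72 h and 10 min and by 40.5 points between 72 h and 1 h. At Pcdhga12, 72 h and 24 h differed by 57.1 points. Sham values spread widely at both genes, at 0, 46.1% and 42.4% for Pcdha10 and 0, 51.1% and 93.0% for Pcdhga12. All these times overlapped the sham range there. At Pcdhb19, whose peak was in all libraries, 10 min was above sham, with a gap of 10.6 points to 1 h and 11.8 points to 24 h.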

How the results depend on the processing

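With only peaks of score 72.1 (the median) or more, members with a peak in at least 9 libraries were 6 in all and 2 in gamma (14 and 8 with all peaks), regions found in every library were 3 (7), members passing before adjustment were 0, members called were 0 at 10 min and 0 at 1 h, and regions called were 0 at 10 min, 0 at 1 h and 1 at 6 h. With equal list lengths, 0 members passed before adjustment, members called were 0 at 10 min, 1 h and 6 h and 2 at 24 h, and regions called were 1, 0, 1 and 3 at 10 min, 1 h, 6 h and 24 h. When a peak had to cover 50% of a window, frequent members were 0 in beta, 3 in gamma and 5 in all, and 0 members passed before adjustment or were called at 10 min, 1 h or 6 h. In the first 1000 bases, frequent members were 5 in gamma and 9 in all. When a peak had to cover 50% of a region, 3 regions were in every library and 2 were called at 24 h. Counted as peak midpoints per 100 kb, the cluster coverage result for 72 h minus sham was 0.53 over all clusters and turned negative in gamma, at -0.19. For the counts passing or called in these settings, the shares over all gene starts and regions were not computed. The causes were not tested.

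Leaving out 1 library at a time, 0 to 1 members passed before adjustment, and it was 0 without sham replicate 1 or 3. Members called numbered 1 to 3 at 10 min (3 without sham replicate 1 or 3), 1 to 2 for 1 h and for 6 h, and 0 to 1 for 24 h and for 72 h. Regions called numbered 2 to 4 at 10 min (4 without sham replicate 3), 1 to 2 for 1 h, 2 to 3 for 6 h, and 0 to 2 for 24 h and for 72 h. Shares over all gene starts and all regions were not computed for these counts. Coverage at 72 h minus sham was 0.92 to 1.51 points over all clusters, 0.29 to 1.02 in alpha, 0.67 to 2.25 in beta (0.67 without 72 h replicate 1) and 0.67 to 2.17 in gamma. MI minus sham crossed 0, at -0.15 to 0.16 points over all.

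Libraries with the same replicate number did not deviate together (mean r = -0.00135, 0 of 45 pairs over 0.1). Those with different numbers had a mean r of 0.000681. Since both were near 0, this check cannot settle whether the numbers pair the mice. With the replicate number as a block, 0 members passed, adjusted or not (Pcdhb17 p = 0.0509 by exact permutation). The members whose 3 numbered pairs all differed one way numbered 5 at 10 min and at 72 h, and 3 each for 1 h, 6 h and 24 h. This rule is looser than the one for gained or lost, and the share of all gene starts meeting it was not computed.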
